A study of Arabidopsis thaliana with 16 samples.

Results

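Osmotin 34 (OSM34, AT4G11650) and 6 further pathogenesis-related (PR) genes were followed across 8 RNAseq libraries of an Arabidopsis cell culture. The 6 were PR1 (AT2G14610), PR2 (AT3G57260), PR3 (AT3G12500, basic chitinase), PR4 (AT3G04720, hevein-like), PR5 (AT1G75040) and PDF1.2A (AT5G44420). They are 7 of the 28598 genes of the count table, and 4 of them (OSM34, PR1, PR3 and PR4) were kept by the filter on low counts. The genes were taken as a named list of identifiers, chosen with the light and dark counts of these same libraries in view. Their levels and fold changes between light and dark are therefore given as a description. Where calls of a test over all genes are given for them, nothing is read from those calls.

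PR proteins are secreted or vacuolar proteins that plants accumulate after infection, and several of them attack the cell walls or membranes of microbes. In Arabidopsis leaves PR1, PR2 and PR5 are the usual markers of salicylic acid signalling, whereas PR3, PR4 and PDF1.2A are used as markers of jasmonate and ethylene signalling. Osmotin, first described in salt-adapted tobacco cells, is a relative of PR5 with a thaumatin-like fold, and both are members of the PR-5 family. Promoters of ethylene-responsive PR genes often hold a GCC box, the element bound by ethylene response factors, while W boxes are bound by WRKY factors and the as-1 core by TGA factors.

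The study asked how chromatin and transcripts differ between light and dark growth. Cells of 1 suspension line, prepared from Columbia (Col-0) leaves and kept in Gamborg's B5 medium with sucrose and the auxin 2,4-D, were grown either in constant light (4 libraries, Light-RNA1 to Light-RNA4) or in foil-wrapped flasks (4 libraries, Dark-RNA1 to Dark-RNA4). Both were subcultured every 7 days, the dark cells were adapted for 2 weeks, and all 8 cultures were sampled 16 h after passage by their labels and the study's account of its samples (the methods also mention light cells of 5 days). The cells were wild type and untreated apart from the light regime, and all libraries come from a single line whose cultures were run in duplicate, so the p-values given for other genes measure the spread between these libraries only.

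The light grown libraries held 18363149 to 37813411 counts and the dark grown libraries 29916585 to 32688689. Levels are given as CPM, counts relative to the library total after TMM scaling, and 3 counts correspond to 0.0779 to 0.159 CPM, a floor that covers counting error only. The growth conditions were checked on LHCB1.3, a light-harvesting protein of chloroplasts. It stood at 73.7, 80.4, 129 and 53.5 CPM in Light-RNA1 to Light-RNA4 and at 0.0318, 0.456, 0.0628 and 0 CPM in Dark-RNA1 to Dark-RNA4. Each library thus held LHCB1.3 at the level of its labelled condition. Reads of LHCB1 copies may be shared, since these genes are closely alike. Of the markers of other cell types, FAMA (guard cells), GL1 (trichomes), EXPA7 (root hairs) and both seed storage genes had at most 1 count in any library. The vascular markers SUC2 and VND7 stayed at or under 0.467 CPM. MYB60, a second guard cell marker, lay between 1.06 and 4.40 CPM in light and between 2.09 and 6.74 CPM in dark. The root hair regulator RHD6 was higher in dark (0.424 to 3.79 CPM in light, 7.91 to 11.9 CPM in dark, adjusted p = 0.0297). The dividing-cell markers were present in every library and none passed the test, with log2 fold changes, dark against light, of -0.70 for CYCB1;1 (15.0 to 40.6 CPM over all libraries), -0.33 for CDKB1;1 (35.5 to 75.9 CPM) and -0.58 for CDKB2;1 (67.4 to 193 CPM). In bulk RNA, a change in the number of cells that express a gene and a change in RNA per cell cannot be told apart.

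Sequence upstream of the genes was read from the RefSeq TAIR10.1 assembly over the 300 bases before each annotated transcript start. Of 27367 such windows, 2.27% held a GCC box (GCCGCC), 32.3% a W box (TTGACC or TTGACT), 21.3% an as-1 core (TGACG) and 7.09% a G box (CACGTG), each sought on both strands. The window of OSM34, chr4:7026225-7026524 on the minus strand, is shown whole because it holds the GCC box and a W box side by side, 72 to 67 and 78 to 73 bases before the transcript start. Capitals mark the W box, which lies on the opposite strand and so reads as its reverse complement, followed by the GCC box, and the 2 motifs do not overlap.
OSM34 promoter: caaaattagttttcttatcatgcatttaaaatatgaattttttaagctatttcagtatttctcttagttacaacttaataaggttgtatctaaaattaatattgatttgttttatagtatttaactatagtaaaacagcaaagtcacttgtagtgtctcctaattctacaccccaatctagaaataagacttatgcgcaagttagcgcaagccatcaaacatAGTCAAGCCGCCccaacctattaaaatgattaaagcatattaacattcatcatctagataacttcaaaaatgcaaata

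PDF1.2A, the other gene with a GCC box, carried it 222 to 217 bases before its start. PR2 and PR3 each held an as-1 core, 264 to 260 and 156 to 152 bases before their starts. PR2 also held a G box at 131 to 126 bases, and PR5 held a W box on the opposite strand at 166 to 161 bases. The windows of PR1 and PR4 held none of the 5 sequences sought. Windows of 30 bases are shown for these motifs, with the motif in capitals. They are chr5:17907843-17907872 (minus strand) for PDF1.2A, chr3:21190214-21190243 and chr3:21190081-21190110 (minus) for PR2, chr3:3964123-3964152 (minus) for PR3 and chr1:28177492-28177521 (plus) for PR5. The transcript of PR3 is annotated from its coding start, so bases listed as upstream may be transcribed.
PDF1.2A GCC box: tcagattaaccaGCCGCCcatgtgaacgat
PR2 as-1 core: ttcacgctagctTGACGtacgattaacggc
PR2 G box: catcatattaaaCACGTGtgtcttgagcta
PR3 as-1 core: acctagcaacaaTGACGgaaggaaaataaa
PR5 W box: cagccatggccgAGTCAAaatgttaagatt

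OSM34 had the largest log2 fold change between light and dark of the 4 genes kept, and it was high in dark. It lies at chr4:7024852-7026224 on the minus strand, with 2 exons that overlap no other annotated gene. The light grown libraries held 403, 46, 131 and 1339 counts of OSM34 in Light-RNA1 to Light-RNA4, or 10.5, 1.37, 5.36 and 71.0 CPM. The dark grown libraries held 5898, 783, 7974 and 9698 counts in Dark-RNA1 to Dark-RNA4, or 187, 25.5, 250.4 and 321 CPM. The other 3 light libraries lay below every dark library, while Light-RNA4 lay above Dark-RNA2, so the groups overlapped. The mean was 22.0 ± 32.8 CPM in light and 196 ± 126 CPM in dark (SD, n = 4 each), and the ratio of the medians was 27.7. By level per kilobase of exon, OSM34 ranked 297 of 27383 genes in Dark-RNA4 and 16437 in Light-RNA2. The fitted log2 fold change, dark against light, was 3.17 with a standard error of 1.197.

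PR3, a basic chitinase that cuts the chitin of fungal cell walls, followed OSM34 in which libraries were high and low. It lies at chr3:3962136-3963984 on the minus strand, overlapped by an antisense gene, AT3G12502, on the other strand, and since the use of strand in counting is not stated, reads of both cannot be told apart. PR3 stood at 871, 492, 438 and 1873 counts in Light-RNA1 to Light-RNA4, which is 22.6, 14.6, 17.9 and 99.3 CPM. In Dark-RNA1 to Dark-RNA4 it stood at 6426, 1371, 8786 and 10210 counts, which is 204, 44.6, 276 and 338 CPM. Here too Light-RNA4 exceeded Dark-RNA2 and no other pair overlapped. The means were 38.6 ± 40.6 CPM in light and 216 ± 127 CPM in dark (SD, n = 4 each), the ratio of medians was 11.8, and the log2 fold change was 2.49 with a standard error of 0.79.

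PR4, a hevein-like protein with a chitin-binding domain, was the most abundant gene of the list per kilobase in every library. It lies at chr3:1285425-1286760 on the minus strand. PR4 gave 2846, 1788, 2159 and 5845 counts in Light-RNA1 to Light-RNA4, equal to 73.9, 53.1, 88.3 and 309.8 CPM. It gave 8446, 3016, 13046 and 15193 counts in Dark-RNA1 to Dark-RNA4, equal to 268, 98.2, 409.7 and 503 CPM. Light-RNA4 was higher than Dark-RNA1 and Dark-RNA2, and the other light libraries were lower than all dark libraries. The ratio of medians was 4.18 and the log2 fold change 1.29 with a standard error of 0.66, from means of 131 ± 120 and 319.96 ± 177 CPM (SD, n = 4 each).

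PR1, a small secreted protein that is the standard marker of salicylic acid responses, was higher in 1 light library than in any dark library. It lies at chr2:6241640-6242541 on the minus strand and has 1 exon. PR1 had 42, 5, 19 and 860 counts in Light-RNA1 to Light-RNA4, or 1.09, 0.149, 0.777 and 45.6 CPM. In Dark-RNA1 to Dark-RNA4 it had 914, 6, 93 and 161 counts, or 29.1, 0.195, 2.92 and 5.34 CPM. The highest library of all 8 was light grown (Light-RNA4), the next was Dark-RNA1, and the lowest library of each condition lay near the floor. Within light the highest level was 307 times the lowest, and within dark 149 times. The log2 fold change was -0.32 with a standard error of 1.68, and its sign depended on single libraries, as given below.

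The remaining 3 genes were near the limit of detection. PR2, a beta-1,3-glucanase that cuts fungal cell wall glucan (chr3:21188397-21189967, minus strand), had 5, 0, 7 and 95 counts in Light-RNA1 to Light-RNA4 and 3, 1, 6 and 20 counts in Dark-RNA1 to Dark-RNA4. Its 5.04 CPM in Light-RNA4 compared with at most 0.286 CPM in the other light libraries and 0.663 CPM in the dark libraries. PR5, a thaumatin-like protein of the same family as osmotin (chr1:28177670-28179022, plus strand), had 9, 2, 1 and 2 counts in light and 0, 8, 0 and 2 counts in dark, with no library above 0.260 CPM. Light-RNA4 was the highest library for PR2 and Dark-RNA2 for PR5, the latter at very low depth. PDF1.2A, a plant defensin (chr5:17906968-17907638, minus strand), was listed at 0 in all 8 libraries. Its close copies PDF1.2B and PDF1.2C were also at 0 throughout, as were all 327 organelle genes of the table. Since the counting mode is not given, a gene without transcripts and a gene whose reads were not counted cannot be told apart here, and a 0 sets no upper limit on the level. Of 481 windows of 50 bases in the exons of PDF1.2A, 3 (0.624%) occurred elsewhere in the genome, and no window of the 6 other genes did.

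**Figure D1:**
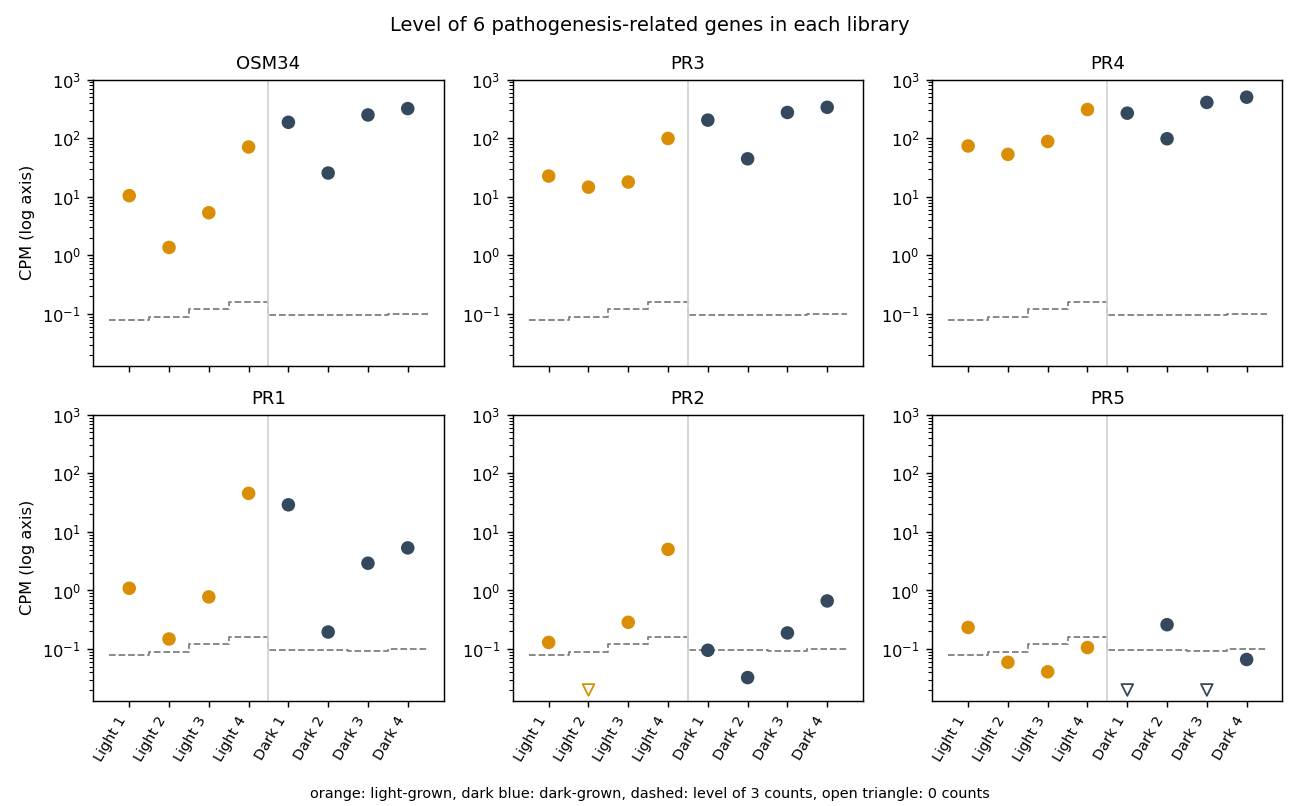
CPM on a log axis of OSM34, PR3, PR4, PR1, PR2 and PR5 in each library, with light grown libraries in orange, dark grown libraries in dark blue, 3 counts as a dashed line and 0 counts as open triangles. Light-RNA4 is the highest light library for OSM34 (71.0 CPM), PR3, PR4, PR1 and PR2, and Dark-RNA2 the lowest dark library for the same genes.

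Levels of different genes can be set side by side only per length. Per kilobase of exon, the mean level in dark was 282 ± 156 CPM for PR4 and 175 ± 113 for OSM34 (SD, n = 4). It was 157 ± 92.2 for PR3 and 10.4 ± 14.7 for PR1. The SDs between libraries were wider than the gaps between PR4, OSM34 and PR3 as neighbours in this order. Within each dark library PR4 was nonetheless above OSM34, by 1.42 to 3.81 times. In light the order was PR4 at 116 ± 106, PR3 at 28.1 ± 29.6, OSM34 at 19.7 ± 29.3 and PR1 at 13.2 ± 24.9 CPM per kilobase. The SDs of PR3, OSM34 and PR1 were wider than the gaps between them, although each light library kept this order. OSM34 and PR3 changed places between the conditions. Their ratio per kilobase was 0.567, 0.115, 0.366 and 0.876 in Light-RNA1 to Light-RNA4 and 1.12, 0.700, 1.11 and 1.16 in Dark-RNA1 to Dark-RNA4. OSM34 was thus below PR3 in all light libraries and in Dark-RNA2, and above it in the 3 other dark libraries. PR4 exceeded PR3 per kilobase by 3.96, 4.40, 5.97 and 3.78 times in Light-RNA1 to Light-RNA4 and by 1.59, 2.66, 1.80 and 1.80 times in Dark-RNA1 to Dark-RNA4. That ratio, unlike the levels themselves, did not overlap between the light and dark libraries, and it is a description like the levels it was made from.

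**Figure D2:**
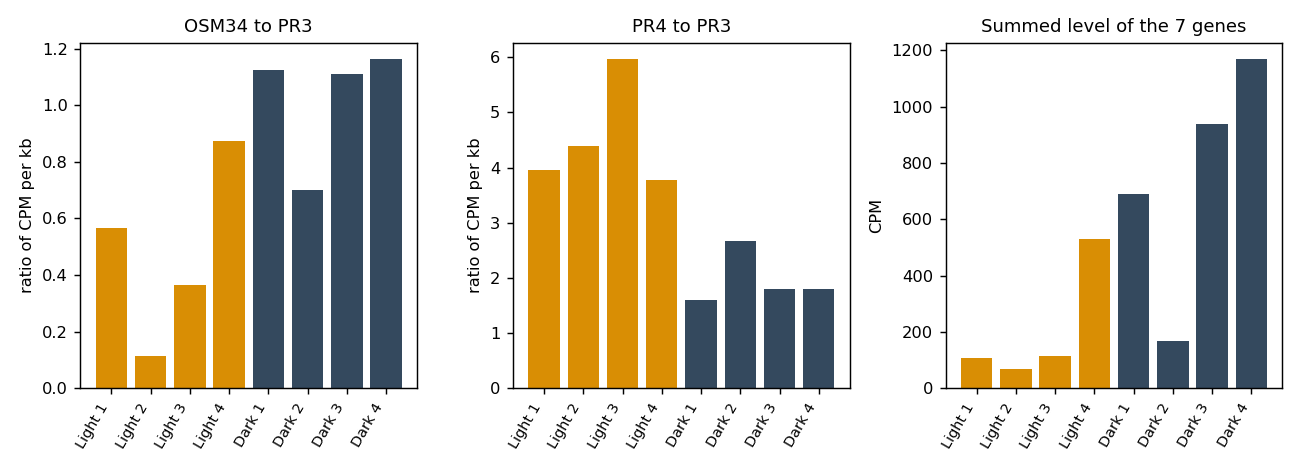
Ratios of CPM per kilobase of exon, OSM34 to PR3 and PR4 to PR3, and the summed CPM of the 7 genes, in each library (light grown in orange, dark grown in dark blue, 1 bar a library). The PR4 to PR3 ratio is 3.78 or more in every light library and 2.66 or less in every dark library, while the summed level overlaps between the groups.

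Taking the 7 genes together, their summed level was 108, 69.3, 113 and 531 CPM in Light-RNA1 to Light-RNA4 and 689, 169, 939 and 1169 CPM in Dark-RNA1 to Dark-RNA4. This was 0.00685% of counts in Light-RNA2, the lowest library, and 0.118% in Dark-RNA4, the highest. Light-RNA1 to Light-RNA3 lay below all dark libraries and Light-RNA4 lay between Dark-RNA2 and Dark-RNA1. The position of those libraries recurred gene by gene. Light-RNA4 was the highest light library and Dark-RNA2 the lowest dark library for 4 of the 4 genes kept. Over all 19129 genes kept, Light-RNA4 was the highest light library for 32.5%, Dark-RNA2 the lowest dark library for 34.5%, and both held for 18.6%.

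On the log2 scale Light-RNA4 exceeded the mean of the other light libraries by 4.03 for OSM34, 6.26 for PR1, 2.45 for PR3 and 2.14 for PR4. Dark-RNA2 differed from the mean of the other dark libraries by -3.27 for OSM34, -4.89 for PR1, -2.58 for PR3 and -1.96 for PR4. The medians of the same differences over all genes kept were -0.03 and 0.00021, near 0 in both libraries. PR1 had the widest shift in both libraries and PR4 the narrowest. LHCB1.3 and RBCS1A, the small subunit of Rubisco, stayed on the side of their condition in both libraries (RBCS1A at 179 CPM in Light-RNA4 and 8.89 CPM in Dark-RNA2, against 309.7 to 343 and 1.13 to 4.16 CPM in the other libraries of the same condition). Light-RNA4 also had the smallest total, 18363149 counts. Of the dividing-cell markers, CYCB1;1 stood at 19.6 CPM in Light-RNA4 against 30.5 to 40.6 CPM in the other light libraries, and CDKB2;1 at 94.7 CPM against 129.7 to 193 CPM. In Dark-RNA2 the same genes, at 19.1 and 121 CPM, lay among the other dark libraries. CDKB1;1 went differently. At 56.9 CPM in Light-RNA4 it lay among the other light libraries (55.4 to 75.9 CPM). In Dark-RNA2, at 75.6 CPM, it lay above the other dark libraries (35.5 to 56.0 CPM). The part of depth and of dividing cells in these shifts was not tested.

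The spread within a condition was wide against other genes. The biological coefficient of variation that edgeR estimated was 1.48 for PR1, 1.01 for OSM34, 0.704 for PR3 and 0.613 for PR4, against a median of 0.212 over all genes kept. These are the 99.9th, 99.0th, 95.9th and 93.7th percentiles of all genes kept. Variation between libraries of 1 condition was thus largest for PR1, whose level per kilobase was the lowest of the 4. The SD of log2 CPM for OSM34 was 2.34 in light and 1.67 in dark, and for PR4 it was 1.11 in light and 1.05 in dark.

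With all 8 libraries, edgeR's quasi-likelihood test called 1912 of 19129 genes at an adjusted p under 0.05, 10.0% of those tested, with 705 higher in dark (3.69%) and 1207 lower (6.31%). Of the 4 PR genes kept it called 0, although 2 had an unadjusted p under 0.05, and DESeq2 called 2 (OSM34 and PR3). Light and dark libraries did not overlap for 16.6% of all genes kept and for 0 of these 4. Since the list was chosen on this contrast, nothing is read from these counts. The median log2 fold change of the 4 genes was 1.89, and that of all genes kept was 0.0039.

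The size of these differences depended most on Light-RNA4, and the direction for PR1 on single libraries. Without Light-RNA4 the log2 fold change was 5.09 ± 1.03 for OSM34, 3.55 ± 0.65 for PR3 and 2.16 ± 0.52 for PR4 (value ± standard error), and edgeR called these 3 genes. For PR1 it was 3.79 ± 1.47 without Light-RNA4, 0.10 ± 1.70 without Dark-RNA2 and -2.06 ± 1.87 without Dark-RNA1, so its sign changed with the library left out. Without Dark-RNA2 edgeR called PR3, at 2.83 ± 0.70. Over all genes, 2738 were called without Light-RNA4 and 2873 without Dark-RNA2, against 1912 with no library left out. With Light-RNA4 and Dark-RNA2 both left out, a choice made after their values were seen, the log2 fold changes were 5.45 ± 0.69 for OSM34, 4.21 ± 1.09 for PR1, 3.89 ± 0.24 for PR3 and 2.46 ± 0.28 for PR4. Light-RNA4 was the highest light library and Dark-RNA2 the lowest dark library in the same 4 genes. Leaving out either or both therefore had to raise the fold changes, and nothing is read from these values or calls. With both left out, 4850 of all genes were called, 2419 higher and 2431 lower in dark.

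**Figure D3:**
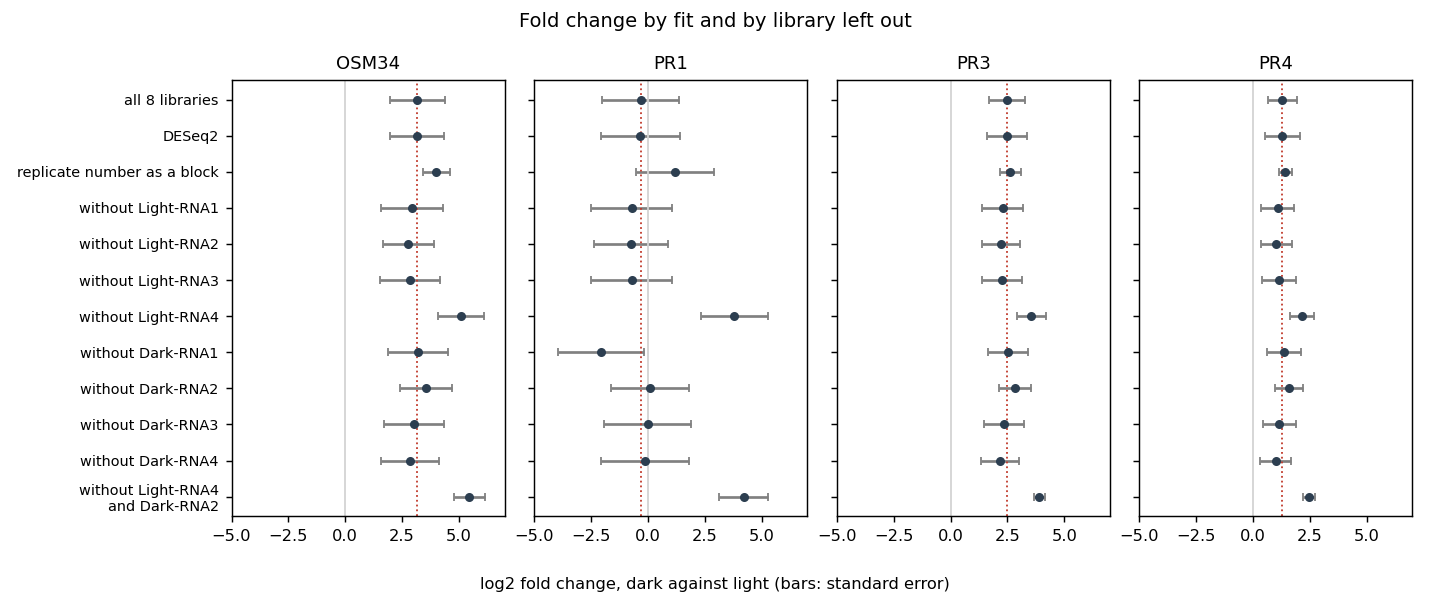
Log2 fold change, dark against light, with its standard error as a bar, for OSM34, PR1, PR3 and PR4 under each fit and with each library left out (dotted line: value with all 8 libraries, solid line: 0). OSM34, PR3 and PR4 stay above 0 in every setting drawn, and PR1 runs from -2.06 without Dark-RNA1 to 4.21 without Light-RNA4 and Dark-RNA2.

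The genes most like each PR gene were found by the root mean square (RMS) difference of centred log2 CPM over the 8 libraries. For PR3 the nearest were PBP1 (PYK10-binding protein 1, RMS 0.25) and AT2G16380, a Sec14p-like lipid transfer protein (RMS 0.33). PBP1 stood at 10.1, 7.34, 9.89 and 34.4 CPM in Light-RNA1 to Light-RNA4 and at 79.2, 15.6, 93.9 and 132 CPM in Dark-RNA1 to Dark-RNA4 and put the 8 libraries in the same order as PR3. AT2G16380 was at or under 1.85 CPM throughout. For PR4 the nearest were AT3G62270, a member of the HCO3- transporter family (RMS 0.22), and AT3G05937, an uncharacterized protein (RMS 0.24). The nearest to OSM34 were farther off, namely the receptor-like protein RLP22 (RMS 0.64) and the TRAF-like protein AT5G26280 (RMS 0.67), and those to PR1 farther still, RLP11 (RMS 0.87) and the uncharacterized AT4G10860 (RMS 0.87). RLP11 stood at 97.0 CPM in Light-RNA4 and 173 CPM in Dark-RNA1 and at 17.9 CPM or less in the 6 other libraries, which are the libraries where PR1 was also high. Among the PR genes themselves, PR3 and PR4 differed by 0.66, OSM34 and PR3 by 1.05, OSM34 and PR4 by 1.59, and PR1 from each of the others by 1.95 to 2.03. The RMS also grows with a gene's own spread, so ranks depend on the gene they start from. Seen from PR4, PR3 held rank 372 among all genes kept, OSM34 rank 16848 and PR1 rank 18172. Seen from PR3, PR4 held rank 71, OSM34 rank 492 and PR1 rank 15515. Seen from OSM34, PR3 held rank 33, PR4 rank 273 and PR1 rank 842. Seen from PR1, the others held ranks 397 to 506.

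Relatives of the PR proteins were counted family by family, in lists chosen with earlier results of these data known. Among these families edgeR's calls fell on PR1-like genes. Over all genes kept, 10.0% were called, 3.69% higher and 6.31% lower in dark. Against that share, 0 or 1 call in lists this short is not read as a trait of the list. Of 20 PR1-like genes, secreted proteins of the same family as PR1, 5 were kept and 3 rose in dark, with none lower, and the median log2 fold change was 2.04. PR-1-LIKE (AT2G19990) rose from 92.9 ± 58.8 to 380.4 ± 172 CPM (log2 fold change 2.04 with a standard error of 0.50, adjusted p = 0.0385). AT5G66590 rose from 2.92 ± 1.12 to 20.2 ± 8.65 CPM (2.78 with a standard error of 0.42, adjusted p = 0.00504). AT2G19970, named outside the rule because it is the only other gene called, rose from 129 ± 52.5 to 409 ± 128 CPM (1.66 with a standard error of 0.33, adjusted p = 0.0168). PR1-like genes called numbered 1 when Light-RNA1, Light-RNA3 or Dark-RNA3 was left out, and 4 without Light-RNA4 and Dark-RNA2. Dark-RNA2 was the lowest dark library for all 5 kept, and Light-RNA4 the highest light library for 2, against 34.5% and 32.5% of all genes kept. In PR-1-LIKE the groups overlapped, with Light-RNA4 at 179 CPM and Dark-RNA2 at 148.5 CPM. In AT5G66590 and AT2G19970 they did not.

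Thaumatin-like genes, the relatives of OSM34 and PR5, showed no call. Of 18, edgeR kept 10 and called 0, 1 had an unadjusted p under 0.05, DESeq2 called 2 (both lower), and the median log2 fold change was 0.03. Leaving out Light-RNA4 gave 2 calls and leaving out Dark-RNA2 gave 1, and without both 3 were called, all lower in dark. The summed level of the thaumatin-like list was 141 to 172 CPM in light and 151 to 160.2 CPM in dark, with Light-RNA4 at 162 CPM and Dark-RNA2 at 151 CPM.

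Chitinases, the relatives of PR3, numbered 15, of which 12 were kept and 0 called by edgeR, 5 at an unadjusted p under 0.05 and 4 by DESeq2 (2 higher, 2 lower), with a median log2 fold change of 0.13. Light-RNA4 was the highest light library for 10 of the 12 and Dark-RNA2 the lowest dark library for 7, against 32.5% and 34.5% of all genes kept. Leaving out Light-RNA4 or Dark-RNA2 gave 3 calls each, leaving out Dark-RNA1 gave 1, and without both Light-RNA4 and Dark-RNA2 edgeR called 8, of which 6 were higher. Of 3 further beta-1,3-glucanases only AT4G16260 was kept, and it was not called. It stood at 0.831, 0.535, 0.777 and 5.57 CPM in Light-RNA1 to Light-RNA4 and at 13.6, 1.302, 19.4 and 22.6 CPM in Dark-RNA1 to Dark-RNA4, with a log2 fold change of 2.94 (adjusted p = 0.107). Light-RNA4 exceeded Dark-RNA2 in it, as in OSM34, and DESeq2 called it, as did edgeR without Light-RNA4 or without Dark-RNA2. Of 10 further defensins and thionins, 3 were kept and edgeR called 0 of them, as did DESeq2, with 0 at an unadjusted p under 0.05 and a median of -0.85.

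Salicylic acid genes were all measured, and 1 was called, where 10.0% of all genes kept were called. Of 21 genes of synthesis and signalling, 21 were kept and 1 rose, FMO1, a monooxygenase of systemic resistance, from 0.484 ± 0.339 to 3.31 ± 2.73 CPM (log2 fold change 2.82 with a standard error of 0.73, adjusted p = 0.0438). The median log2 fold change was 0.17. Light-RNA4 was the highest light library for 18 of the 21 and Dark-RNA2 the lowest dark library for 13, against 32.5% and 34.5% of all genes kept. The summed level was 417, 236, 287 and 709.5 CPM in Light-RNA1 to Light-RNA4 and 575, 348, 574 and 424 CPM in Dark-RNA1 to Dark-RNA4. Calls in this list fell to 0 when any of Light-RNA1, Light-RNA2, Light-RNA3, Dark-RNA1, Dark-RNA3 or Dark-RNA4 was left out, and rose to 3 without Light-RNA4 and to 8, all higher, without both Light-RNA4 and Dark-RNA2.

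Of 14 jasmonate genes 11 were kept, and VSP2, a vegetative storage protein and jasmonate marker, was lower in dark (7.96 ± 1.05 CPM in light, 1.07 ± 1.12 CPM in dark, log2 fold change -2.89 with a standard error of 0.61, adjusted p = 0.0203). This was the only call of the list, where 10.0% of all genes kept were called, and the median of the 11 was 0.14. LOX2, AOC2 and MYC2 of this list were listed at 0 in all 8 libraries, which as for PDF1.2A sets no upper limit on their levels. The count of calls was 0 without Light-RNA1, Light-RNA2, Light-RNA3 or Dark-RNA3, 2 without Dark-RNA2, 3 without Light-RNA4 and 6 without both Light-RNA4 and Dark-RNA2 (4 higher).

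Of 22 ethylene genes all 22 were kept, 3 rose and 2 fell, with a median log2 fold change of 0.22. Over all genes kept, 3.69% were called higher and 6.31% lower in dark. Neither fall was called without Light-RNA1, Light-RNA2, Light-RNA3, Dark-RNA3 or Dark-RNA4, nor with the replicate number as a block (7 higher, 0 lower), and 1 list gene was lower without Dark-RNA1. ERF1, an ethylene response factor that binds the GCC box, rose from 1.19 ± 0.655 to 4.62 ± 1.44 CPM (log2 fold change 1.96 with a standard error of 0.46, adjusted p = 0.0300). EBF1, an F-box protein that limits EIN3, rose from 62.2 ± 7.12 to 107 ± 28.8 CPM (0.79, adjusted p = 0.0411). ORA59, another GCC box factor, fell from 7.51 ± 1.33 to 4.77 ± 0.113 CPM (-0.65, adjusted p = 0.0330), and ERS2, an ethylene receptor, fell from 11.9 ± 1.49 to 8.08 ± 0.827 CPM (-0.56, adjusted p = 0.0349). The third that rose was EFE (AT1G05010), an ACC oxidase, named outside the rule after its values were seen. Calls in this list ranged from 0 without Light-RNA3 to 8 without Dark-RNA2, with 1 without Light-RNA2 or Dark-RNA3 or Dark-RNA4, 2 without Dark-RNA1, 3 without Light-RNA1, 9 with DESeq2 and 11 without both Light-RNA4 and Dark-RNA2.

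Osmotic stress and abscisic acid genes were lower in dark wherever they were called. Of 16, edgeR kept 12 and called 4, all lower in dark, where 6.31% of all genes kept were called lower. The median log2 fold change of the list was -1.48. RD20, a caleosin, stood at 0.651 ± 0.294 CPM in light and 0.0160 ± 0.0185 CPM in dark, where no library was above the floor of 3 counts (adjusted p = 0.00484). KIN1 fell from 4.68 ± 2.03 to 0.219 ± 0.376 CPM (log2 fold change -4.40, adjusted p = 0.0307), and its near-identical neighbour KIN2 from 40.0 ± 8.28 to 3.30 ± 2.98 CPM (-3.60, adjusted p = 0.00568), so that reads of the pair are uncertain. RD29A, a hydrophilic stress protein that like KIN2 is named outside the rule after its values were seen, also fell, from 114 ± 31.0 to 29.0 ± 13.2 CPM (-1.97, adjusted p = 0.0174). In RD29A the light and dark libraries did not overlap, although Light-RNA4 (67.9 CPM) and Dark-RNA2 (42.2 CPM) again lay nearest to each other. The number called was 2 without Light-RNA3, Dark-RNA3 or Dark-RNA4 and 7 without Dark-RNA2, always lower in dark, and 8 without both Light-RNA4 and Dark-RNA2.

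**Figure D4:**
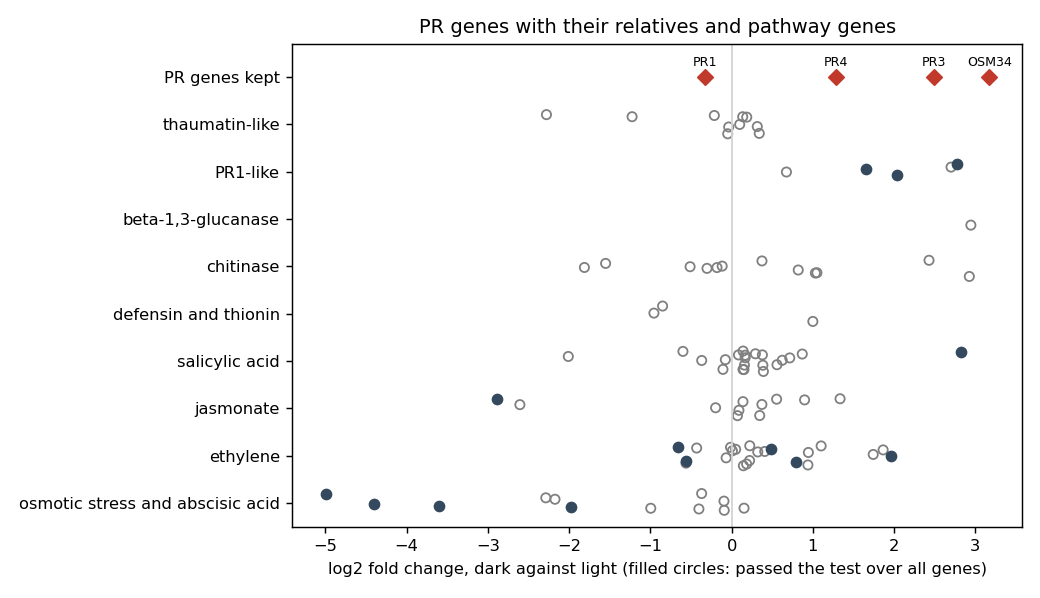
Log2 fold change, dark against light, of the 4 PR genes kept (red diamonds) and of each kept gene of 9 lists of relatives and pathway genes (circles, filled where the gene passed the test over all genes, vertical position within a row without meaning). OSM34, PR3 and PR4 lie to the right of 0 (3.17, 2.49 and 1.29) beside the 3 called PR1-like genes, whereas the 4 called osmotic stress and abscisic acid genes lie to the left.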

How the data were processed

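Processing followed the study's count-based route. Paired-end RNAseq reads of 50 bp were aligned by the authors (TopHat2, TAIR10 genome, Araport11 gene models) and assigned to genes by HTSeq, and the deposited counts are whole reads per gene, neither normalised nor pooled. Versions, counting mode and strand setting are not given in the sources used here. A second deposited table holds the authors' own log2 fold change, average log2 CPM, p-value and FDR per gene and was not used. MNase-seq data (8 samples) are not analysed here.

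Counts were tested with edgeR 4.0.16 (R 4.3.3) using TMM factors, filterByExpr (minimum count 10, minimum total 15), a robust quasi-likelihood fit and p-values adjusted by Benjamini-Hochberg across 19129 genes, with growth condition as the only term and a threshold of 0.05. A standard error was obtained from each fold change and its F statistic (size of the log2 value over the square root of F). CPM used TMM-scaled totals, log2 CPM a prior count of 2, and levels per kilobase the merged exon length. DESeq2 1.42.0, RLE size factors, no filter, the replicate number as a block and each library left out in turn were alternatives. The PR genes, the lists of relatives and pathway genes and the motifs were chosen with earlier results of these data known. The genes named are the 7 PR genes, the 2 nearest genes of each kept one, and the called genes with the 2 largest rises and 2 largest falls of each list.

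Names and loci came from RefSeq TAIR10.1, to which 27383 identifiers matched, and its nuclear chromosomes were taken as those of TAIR10. All 327 organelle genes were at 0. Counts of libraries of 1 condition differed by 23.5 to 131 times the sampling variance per gene, so no pair was the same library sequenced again. This cannot tell whether libraries came from the same culture. Python 3.11.15 with pandas 2.3.3, numpy 2.4.6 and matplotlib 3.10.9 made summaries and figures.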

Additional observations from a re-analysis of the deposited data

Results flagged for a closer look

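Light-RNA4 was far above the other 3 light grown libraries in 5 of the 7 PR genes on the linear CPM scale. OSM34 was at 70.97 CPM there, against 1.37 to 10.5 CPM in the others. PR1 was at 45.58 CPM against 0.149 to 1.09, and PR3 at 99.28 CPM against 14.6 to 22.6. PR4 was at 309.8 CPM against 53.1 to 88.3, and PR2 at 5.036 CPM against 0 to 0.286. The gap to the next library, as a share of the range of the 4 libraries, was 0.863 to 0.979 on this scale, past the limit of Dixon's criterion for 4 samples. On the log2 scale the gap was 0.489 of the range for OSM34, 0.686 for PR1, 0.773 for PR3 and 0.712 for PR4, and none of these was past that limit. The criterion was met in 5 of 12 groups looked at. It flags about 5% of groups by chance only where values are normally distributed, and the genes were chosen with these counts in view and share 1 library, so the values are a description and nothing is read from their number.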

How the results depend on the processing

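Of 182 values recomputed under other settings, 115 stayed within a set tolerance and 67 moved, mostly when a library was left out. For counts the tolerance was 1.5 times, and for fold changes the gene's own SD of log2 CPM between libraries of a condition. That SD was wide, 2.03 for OSM34 and 3.07 for PR1. The 115 therefore include large shifts, and values of PR1 that changed sign. RLE size factors moved none, and without the filter on low counts only the thaumatin-like count moved, to 1. DESeq2 called 3356 genes, including 5 PR1-like, 1 beta-1,3-glucanase, 4 chitinase, 2 thaumatin-like, 3 jasmonate, 9 ethylene and 7 osmotic stress genes. Without Light-RNA4 and Dark-RNA2, chosen after the data were seen, 4850 genes were called (1855 of them also called with all libraries), with 3 thaumatin-like, 1 beta-1,3-glucanase, 8 chitinase, 1 defensin, 8 salicylic acid, 6 jasmonate, 11 ethylene and 8 osmotic stress genes, and log2 fold changes of 5.45 for OSM34, 4.21 for PR1, 3.89 for PR3 and 2.46 for PR4.

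With 1 library left out, the calls ranged from 962 (without Light-RNA3) to 2873 (without Dark-RNA2). In the lists they ranged from 0 to 2 for thaumatin-like, 1 to 4 for PR1-like, 0 to 1 for beta-1,3-glucanase, 0 to 3 for chitinase, 0 to 3 for salicylic acid, 0 to 3 for jasmonate, 0 to 8 for ethylene and 2 to 7 for osmotic stress genes. Log2 fold changes ranged from 2.77 to 5.09 for OSM34, -2.06 to 3.79 for PR1, 2.19 to 3.55 for PR3 and 0.98 to 2.16 for PR4.

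Over all genes kept, the correlation of same-numbered deviations ran from -0.144 to 0.582. Only Light-RNA2 was closest to the dark library of its own number. In OSM34, PR3 and PR4, however, number 4 was highest and number 2 lowest in both conditions. In PR1 this held in light, but in dark Dark-RNA1 was highest (29.1 CPM, against 5.34 CPM in Dark-RNA4). With the number as a block the standard errors of OSM34, PR3 and PR4 were 0.597, 0.459 and 0.287, against 1.197, 0.79 and 0.656 without it. That of PR1 was 1.713 with the block and 1.682 without it. The sources do not say whether same-numbered cultures belong together, and a pairing was not tested. With the number as a block 2221 genes were called, 1607 of them also called without it, with OSM34, PR3 and PR4 among them, and the lists had 1 thaumatin-like, 1 beta-1,3-glucanase, 3 chitinase, 3 jasmonate and 7 ethylene calls, the last with 0 lower in place of 2. PR1 changed sign under the block, to 1.19. PDF1.2A could not be fitted, alone or summed with its copies, as all counts were 0. The depth limits PR2 and PR5, whose counts in most libraries were under 10. The cause of these changes was not tested.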
